A study of Mus musculus with 6 samples.

Results

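Cytosolic ribosomal protein genes were compared between livers of fasted and fed mice. The genes were chosen by symbol alone, as Rpl or Rps followed by digits and at most a single final letter, together with Rplp0, Rplp1 and Rplp2, which leaves out the Rps6k kinases. The rule found 79 of the 22564 genes of the deposited table, 30 of the small 40S subunit and 49 of the large 60S subunit. The study held 6 libraries of whole-liver RNA from male C57BL/6J mice, a common inbred laboratory strain, at an age of 10 weeks. In the fasted group (3 libraries) food was withheld for 16 h, and in the fed group (3 libraries) the mice ate freely; no other treatment or allele is labelled in either group. Whether a library stands for a single mouse is not labelled. The p-values therefore weigh the difference between groups against the spread among libraries, which need not be the spread among mice.

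A ribosome carries a single copy of most of its proteins, which are made in about equal numbers. Nearly all mammalian ribosomal protein transcripts begin with a cytosine and a run of pyrimidines, the 5′ terminal oligopyrimidine (TOP) stretch. When nutrients or insulin are short and the kinase mTORC1 is less active, the protein LARP1 binds this stretch, and the transcripts are known to leave polysomes while staying in the cell. Sequencing of total RNA measures the amount of these transcripts and not their translation.

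Start sites of 58 members were matched in the RefSeq table of promoters on build GRCm38.p6. A TOP stretch, taken here as a C at the annotated start base followed by at least 4 bases that are C or T, began 13 of the 58 (22.4%), against 3.01% of the 27025 genes of that table. The sequences below belong to some of the members named in the results, and they show how the annotated start differs between members. Rpl36 and Rpl3 were not among the matched members. Rps21 and Rps27l each have a further annotated start, without the stretch, that is not printed. Each line runs 5′ to 3′ on the strand of the gene, from 10 bases before the start base through the next 20, with the TOP stretch in capitals where there is one.

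Rps18, chr17:33955646-33955675, minus strand: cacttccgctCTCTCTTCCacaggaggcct
Rps27, chr3:90213629-90213658, minus strand: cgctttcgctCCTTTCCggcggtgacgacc
Rps6, chr4:86857348-86857377, minus strand: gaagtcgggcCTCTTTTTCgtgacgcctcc
Rps21, chr2:180257369-180257398, plus strand: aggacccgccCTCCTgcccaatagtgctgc
Rplp2, chr7:141447641-141447670, plus strand: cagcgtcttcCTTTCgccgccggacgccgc
Rps9, chr7:3704031-3704060, plus strand: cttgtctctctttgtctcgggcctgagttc
Rpl5, chr5:107900518-107900547, plus strand: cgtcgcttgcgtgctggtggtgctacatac
Rpl12, chr2:32961702-32961731, plus strand: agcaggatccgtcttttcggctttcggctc
Rps27l, chr9:66946076-66946105, plus strand: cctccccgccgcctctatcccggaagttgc

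The first 5 carry the stretch and the last 4 do not by this rule. Rps9 shows how far the match rests on the annotated base: its window is rich in pyrimidines around a start base that is T. Among the tested members the median log2 fold change, fasted over fed, was 0.08 in the 13 with a TOP stretch at the annotated start and 0.17 in the 42 matched members without it. The 13 ranged from -0.32 (Rps21) to 0.48 (Rps18), and the starts of both are printed above.

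No ribosomal protein transcript passed the main test between fasted and fed livers, and the estimates of 75 of 76 lay within 1.5-fold. Of the 79 members, 76 passed the filter on low counts and were tested among 11633 genes with the quasi-likelihood test of edgeR. At an adjusted p under 0.05, 0 of the 76 were called in either direction, where 2.52% of all tested genes were (1.41% higher and 1.11% lower in fasted livers). The lowest adjusted p among the members was 0.108 by edgeR, for Rpl36. At an unadjusted p under 0.05 edgeR gave 6 members (7.89%), against 21.8% of all tested genes, and they were Rps9, Rps18, Rpl36, Rps27 and Rpl5 on the higher side in fasted livers and Rpl3 on the lower. DESeq2, run as an alternative, called 3 of the 76 as higher in fasted livers, Rps18, Rps9 and Rpl36, where it called 8.33% of the genes that it gave an adjusted p. Limma on log2(FPKM + 0.1) called 0 members, against 1.69% of the genes in that fit; FPKM is the number of fragments per transcript length and sequencing depth.

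The median log2 fold change over the 76 tested members was 0.16, or 1.12-fold, and the middle 50% of them lay between 0.05 and 0.25. Over all tested genes the median was -0.02 and the middle 50% lay between -0.33 and 0.27. Of the members 62 had an estimate above 0 and 14 below it, while 48.7% of all tested genes had one above 0. The direction depended on the scaling: with totals that leave out the 10 genes most abundant over the 6 libraries the members' median was -0.02, with plain library totals 0.03, and with TMM factors, used throughout unless stated, 0.16. Those 2 alternatives moved the median of all genes by -0.18 and -0.14, so the distance between the members' median and that of all genes stayed at 0.18 in both, the same as with TMM factors, and lay between 0.13 and 0.20 under all alternatives tried. All genes include many of lower level. Over the 3743 other tested genes in the members' CPM range, described below, the median with TMM factors was 0.09, nearer to the members' median. The 40S members had a median of 0.15 (30 tested) and the 60S members 0.17 (46 tested).

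**Figure D1:**
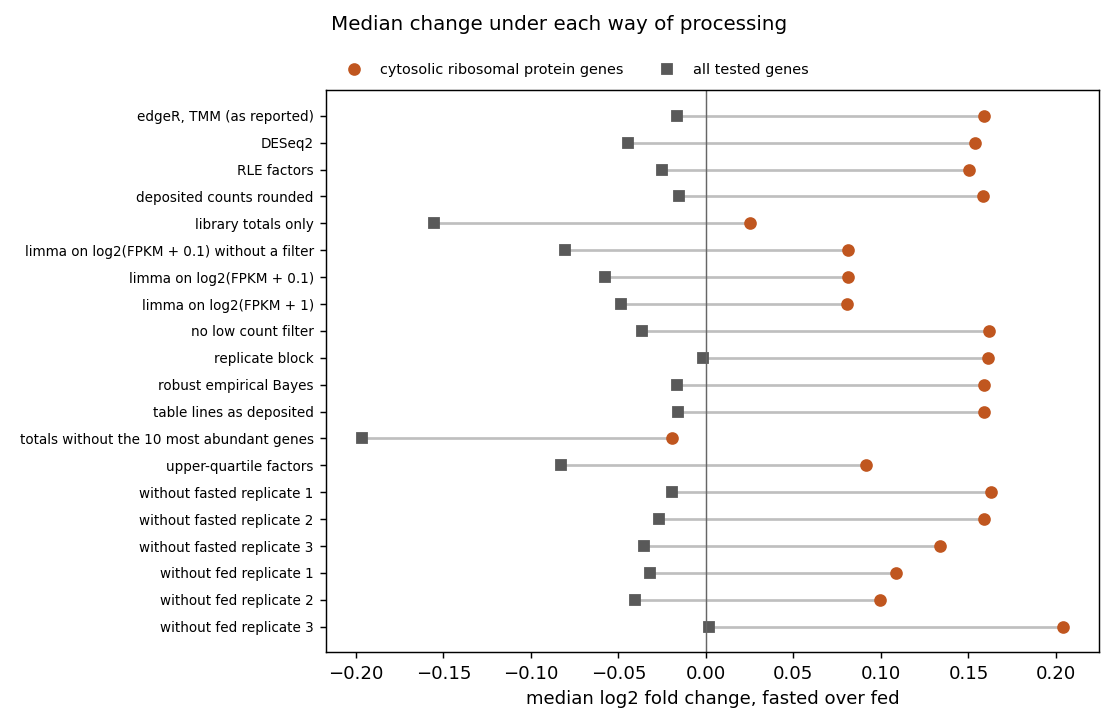
Median log2 fold change, fasted over fed (horizontal axis), of the tested cytosolic ribosomal protein genes (circles) and of all tested genes (squares) under each way of processing (rows). The members' median ran from -0.02, with totals that leave out the 10 most abundant genes, to 0.20, without fed library 3, and lay to the right of the median of all genes in every row.

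How small the differences were can be read from the intervals. The 95% interval of the fold change lay within 1.5-fold in either direction for 54 of 76 members (71.1%), against 21.9% of all tested genes. It lay within 2-fold for 75 members (98.7%), against 58.7% of all tested genes, and the exception was Rpl41. For 0 members did it lie within 1.25-fold, although 68 of the estimates did. The width of an interval follows its standard error, whose median was 0.147 for the members and 0.229 for all tested genes. Interval shares among other genes in the members' CPM range were not taken. The spread over the 6 libraries was also narrow, with a median SD of log2(CPM + 0.5) of 0.140 for the members, against 0.263 for the 3743 other tested genes with a mean between 26.4 and 486 CPM. CPM is the count relative to the TMM-scaled library total, and that range is the members' own without Rpl41 and the line named Rpl24. The SD was under 0.2 for 65 of 76 members and for 32.6% of those other genes, of which edgeR called 3.98%.

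**Figure D2:**
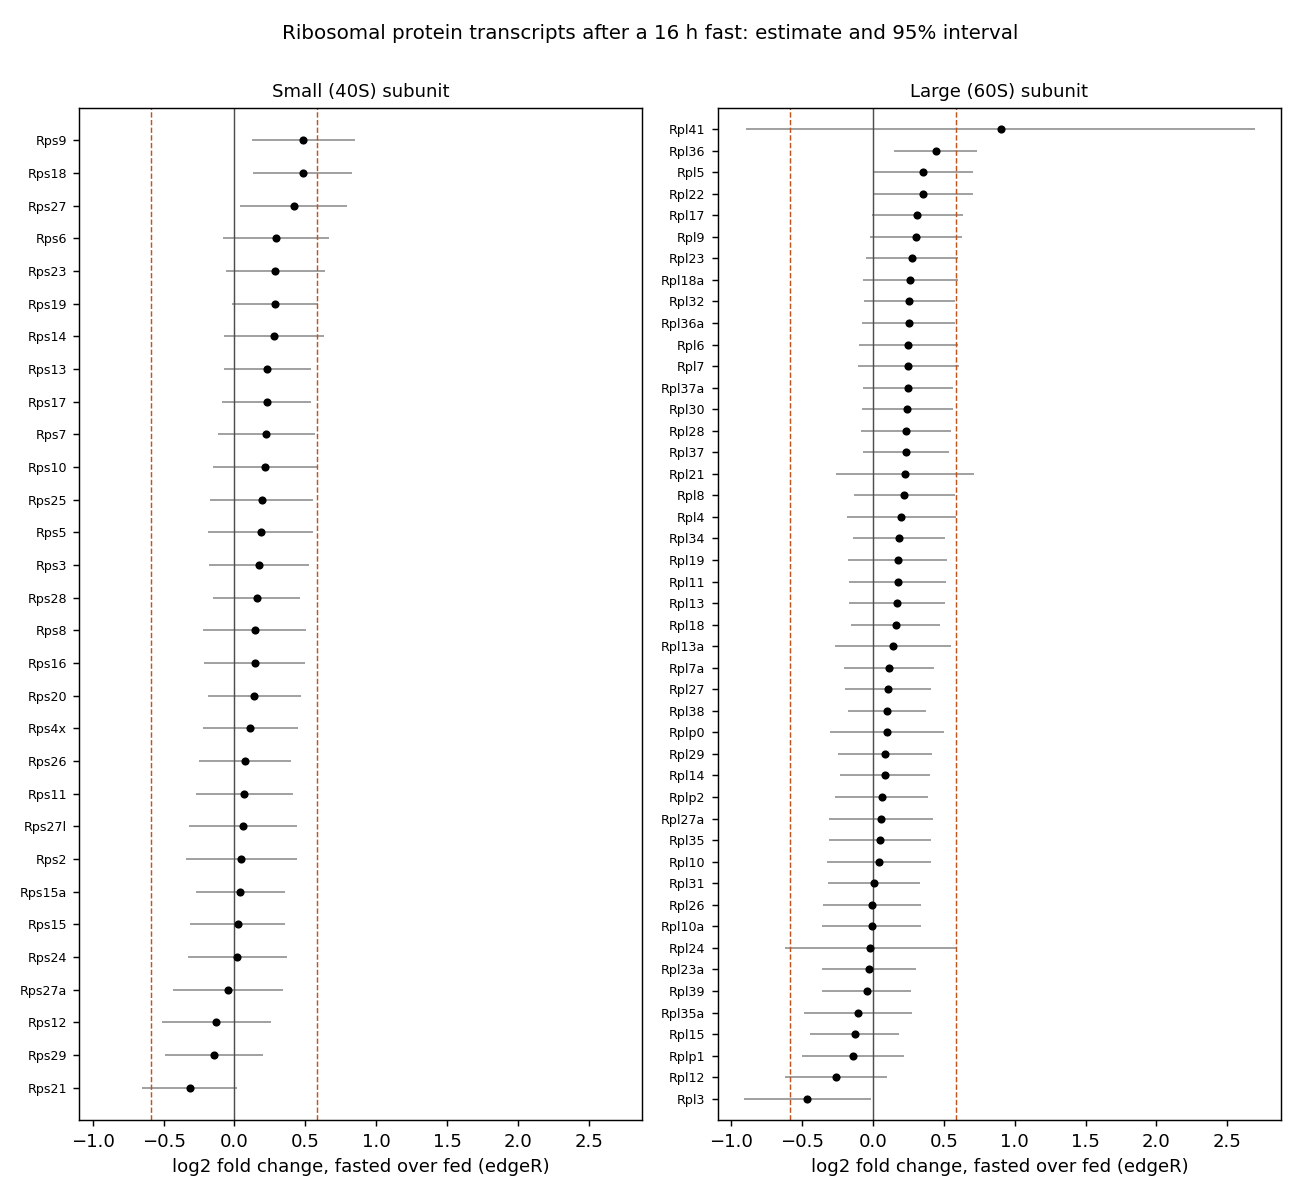
edgeR estimate (point) and 95% interval (line) of the log2 fold change, fasted over fed, for the 30 small-subunit members (left) and the 46 tested large-subunit members (right), ordered by estimate; dashed lines mark 1.5-fold. The estimates ran from -0.46 for Rpl3 to 0.90 for Rpl41, whose interval is the widest, and the next largest was 0.49 for Rps9.

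Among the small-subunit genes the highest estimates belonged to Rps9 and Rps18, both core proteins of that subunit. Rps9 had 295, 313 and 290 CPM in fasted livers 1, 2 and 3, against 213, 199 and 230 CPM in fed livers 1, 2 and 3. Its log2 fold change was 0.49 (95% interval 0.12 to 0.85), with an adjusted p of 0.136 by edgeR. Rps18 had 289, 298 and 302 CPM in fasted livers, against 207, 209 and 221 CPM in fed livers. Its log2 fold change was 0.48 (0.13 to 0.83), with an adjusted p of 0.127 by edgeR. For both genes every fasted library lay above every fed library, and the gap between the groups was wider than the range within either. By DESeq2 the adjusted p was 0.0149 for Rps9 and 0.00626 for Rps18.

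Rps27, a zinc-finger protein of the 40S subunit, had 31.5, 32.4 and 38.3 CPM in fasted livers, against 23.0, 23.1 and 30.4 CPM in fed livers. The groups did not overlap, but fed library 3 came within about 1 CPM of the lowest fasted library, and the adjusted p was 0.192 by edgeR at a log2 fold change of 0.42. Its paralog Rps27l, known as a target of p53, had 100.1, 95.4 and 126 CPM in fasted livers, against 108, 94.7 and 105 CPM in fed livers. Here the groups overlapped, at a log2 fold change of 0.06. Rps6, the protein that S6 kinases phosphorylate when mTORC1 is active, had 287, 306 and 295 CPM in fasted livers, against 222, 233 and 268 CPM in fed livers. The groups did not overlap, and the log2 fold change of 0.29 had an adjusted p of 0.331 by edgeR.

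Rps21, a small 40S protein found only in eukaryotes, lay on the other side. It had 54.0, 60.2 and 59.4 CPM in fasted livers, against 69.3, 65.3 and 81.5 CPM in fed livers, a log2 fold change of -0.32 with an adjusted p of 0.251 by edgeR. Rps4x, the X-linked form of its protein, held the most even level of the 40S genes named here. It had 218, 217 and 207 CPM in fasted livers, against 196, 194 and 204 CPM in fed livers, which do not overlap but differ by 0.11 on the log2 scale.

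Of the large-subunit genes Rpl36 had the lowest adjusted p. It had 94.6, 97.8 and 101 CPM in fasted livers, against 73.6, 69.4 and 73.0 CPM in fed livers. The 3 libraries of each group lay close together and the groups far apart, at a log2 fold change of 0.44 (0.15 to 0.74), and DESeq2 gave an adjusted p of 0.0305. Rpl5, which binds the 5S ribosomal RNA together with Rpl11, had 306, 315 and 296 CPM in fasted livers, against 248, 238 and 231 CPM in fed livers. The groups did not overlap, and the log2 fold change of 0.36 had an adjusted p of 0.226 by edgeR. Its partner Rpl11, chosen after its values were seen, had 206, 192 and 215 CPM in fasted livers, against 181, 174 and 188 CPM in fed livers, also without overlap, at 0.18.

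Rpl3, which reaches towards the peptidyl transferase centre, had the lowest estimate of all members. It had 217, 159 and 165 CPM in fasted livers, against 234, 229 and 283 CPM in fed livers. The groups did not overlap, but fasted library 1 lay nearer to fed libraries 1 and 2 than to the other fasted libraries. The log2 fold change was -0.46 (-0.91 to -0.02), with an adjusted p of 0.217 by edgeR. Rpl12, at the base of the stalk, had 131, 129 and 111 CPM in fasted livers, against 145, 137 and 163 CPM in fed livers, again without overlap, at -0.26 with an adjusted p of 0.368 by edgeR.

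The acidic stalk, which recruits elongation factors to the ribosome, is built from Rplp0, Rplp1 and Rplp2. Their log2 fold changes were 0.10, -0.14 and 0.06, and for none of the 3 were the groups apart in CPM. Rplp0 had 423, 391 and 370 CPM in fasted livers, against 338, 359 and 410 CPM in fed livers. Rplp1 had 236, 231 and 226 CPM in fasted livers, against 255, 235 and 274 CPM in fed livers. In FPKM the groups of Rplp1 were apart, with 619, 632 and 632 FPKM in fasted livers, against 777, 684 and 726 FPKM in fed livers. Rplp1 was also lower in fasted livers without overlap as a share of the library total, with or without the 10 most abundant genes. Rplp2, whose TOP start is printed above, had 83.6, 77.0 and 80.4 CPM in fasted livers, against 69.4, 76.2 and 85.6 CPM in fed livers. In CPM fed library 3 was the highest of the fed libraries for all 3 genes.

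Rpl41 encodes the shortest ribosomal protein, and it was singled out after its values were seen. It had 52.7, 65.3 and 7.53 CPM in fasted livers, against 33.4, 7.83 and 26.1 CPM in fed livers. Each group held a library several times lower than its others, and the log2 fold change of 0.90 had a standard error of 0.77.

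Counting libraries without a model, 36 of the 76 tested members (47.4%) had groups that did not overlap in CPM. The share was 29% of all tested genes and 35.4% of the 3743 other tested genes in the members' CPM range. Of the 36 members 33 were higher in fasted livers (43.4%, against 15.3% of all tested genes) and 3 were lower (3.95%, against 13.7%). On other scales the split was smaller, absent or turned round. In FPKM 15 were higher and 5 lower, together 26.3% of the members against 26.4% of all genes in that fit (10.4% higher and 16% lower). As a share of the library total 8 were higher and 9 lower, together 22.4% against 26.9% of all tested genes (7.74% higher and 19.1% lower). As a share of the total without the 10 most abundant genes 7 were higher and 16 lower, together 30.3% against 32.2% of all tested genes (7.98% higher and 24.3% lower). On all 4 scales Rps9, Rps18, Rpl36 and Rpl9 were higher in fasted livers without overlap (5.26%, against 6.01% of all tested genes), and Rpl3, Rps21 and Rpl12 were lower (3.95%, against 11.1%). Rpl9 was named after its values were seen, and it had 153, 155 and 157 CPM in fasted livers, against 119, 123 and 135 CPM in fed livers. The share apart on all 4 scales was thus no larger among the members than among genes in general.

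**Figure D3:**
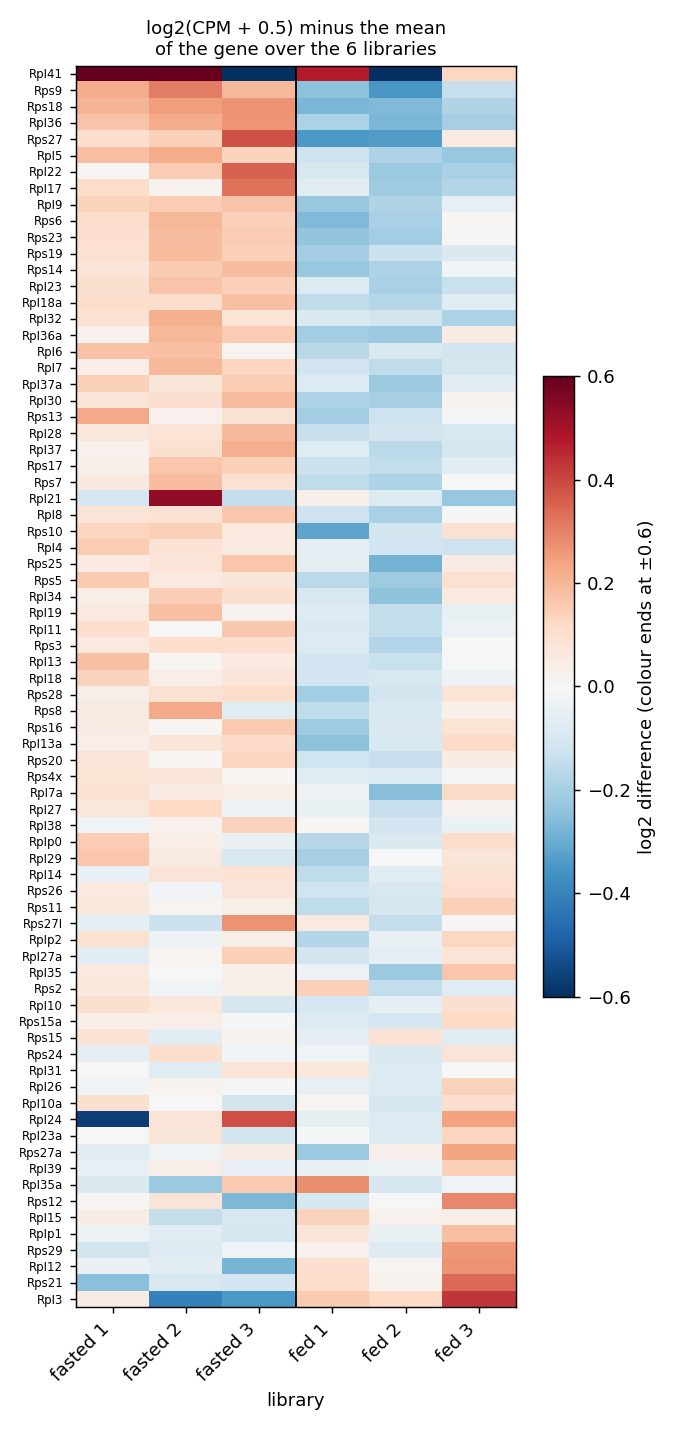
Deviation of log2(CPM + 0.5) from the mean of each gene over the 6 libraries (colour, ending at ±0.6), with the 76 tested members down the page by log2 fold change and the 3 fasted libraries left of the 3 fed libraries. Fed library 3 stands above the other fed libraries for most genes, by a median of 0.11 from its group mean.

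Relative to the mean of its own group, the members' median deviation in log2(CPM + 0.5) was -0.024, 0.00078 and 0.0042 in fasted libraries 1, 2 and 3, against -0.03, -0.06 and 0.11 in fed libraries 1, 2 and 3. Without fed library 3 the members' median log2 fold change was 0.20, and without fed library 2 it was 0.10. Fed library 3 also differed in the genes that fill the library: the 10 genes most abundant in each library itself took 22.7%, 21.9% and 17.3% of its counts in fasted livers, against 18.2%, 22.9% and 31.4% in fed livers. Alb had 72565, 62890 and 50246 CPM in fasted livers, against 50409, 0 and 33310 CPM in fed livers, so the total and the shares of fed library 2 lack it. The summed level of 20 acute phase genes was 161648, 153679 and 80555 CPM in fasted libraries 1, 2 and 3, against 48592, 182123 and 315732 CPM in fed libraries 1, 2 and 3. The part of these abundant transcripts in the members' levels was not tested.

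As a single quantity, the summed transcripts of the 79 members made up 1.10%, 1.13% and 1.19% of the counts of fasted libraries 1, 2 and 3, against 1.22%, 1.13% and 1.05% of fed libraries 1, 2 and 3. The means were 1.14% ± 0.0447 in fasted livers and 1.13% ± 0.0861 in fed livers (SD, n = 3 each), a difference smaller than the spread within either group. With the 10 most abundant genes left out of the total the shares were 1.42%, 1.44% and 1.41% in fasted livers, against 1.45%, 1.42% and 1.4997% in fed livers. Relative to TMM-scaled totals the members summed to 11943, 12014 and 11892 CPM in fasted livers, against 10569, 10356 and 11466 CPM in fed livers, where the groups do not overlap. The groups of the summed transcripts were thus apart relative to TMM-scaled totals and overlapped in both other shares. The balance between the subunits varied little: 40S members took 39.2%, 39.8% and 40.1% of the members' counts in fasted livers, against 38.6%, 38.9% and 39.4% in fed livers. In whole liver, fewer cells of a type and less RNA per cell cannot be told apart.

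Levels between members were compared in FPKM, which divides by transcript length. Leaving out Rpl41 and the line named Rpl24, the 74 other tested members had mean levels over the 6 libraries between 52.0 FPKM (Rpl21) and 678 FPKM (Rplp1), a 13.1-fold range, with a median of 241 FPKM and the middle 50% between 183 and 322 FPKM. The highest were Rplp1 of the stalk with 628 ± 7.22 FPKM in fasted livers and 729 ± 46.6 FPKM in fed livers, and Rpl13a with 679 ± 58.2 FPKM in fasted livers and 602 ± 32.5 FPKM in fed livers (SD, n = 3 each). Rps18 followed with 606 ± 32.7 FPKM in fasted livers and 460 ± 15.7 FPKM in fed livers, ahead of Rps24 and Rpl26 at means of 455 and 451 FPKM over the 6 libraries. Rps24 and Rpl26 lay within each other's spread. The order of the genes was kept between the groups, with a Spearman coefficient of 0.967 between fasted and fed mean levels across the 74 genes, which share the same libraries and are not independent replicates. The log2 fold change was nearly unrelated to the log2 mean level across these genes (Pearson's r = 0.109).

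**Figure D4:**
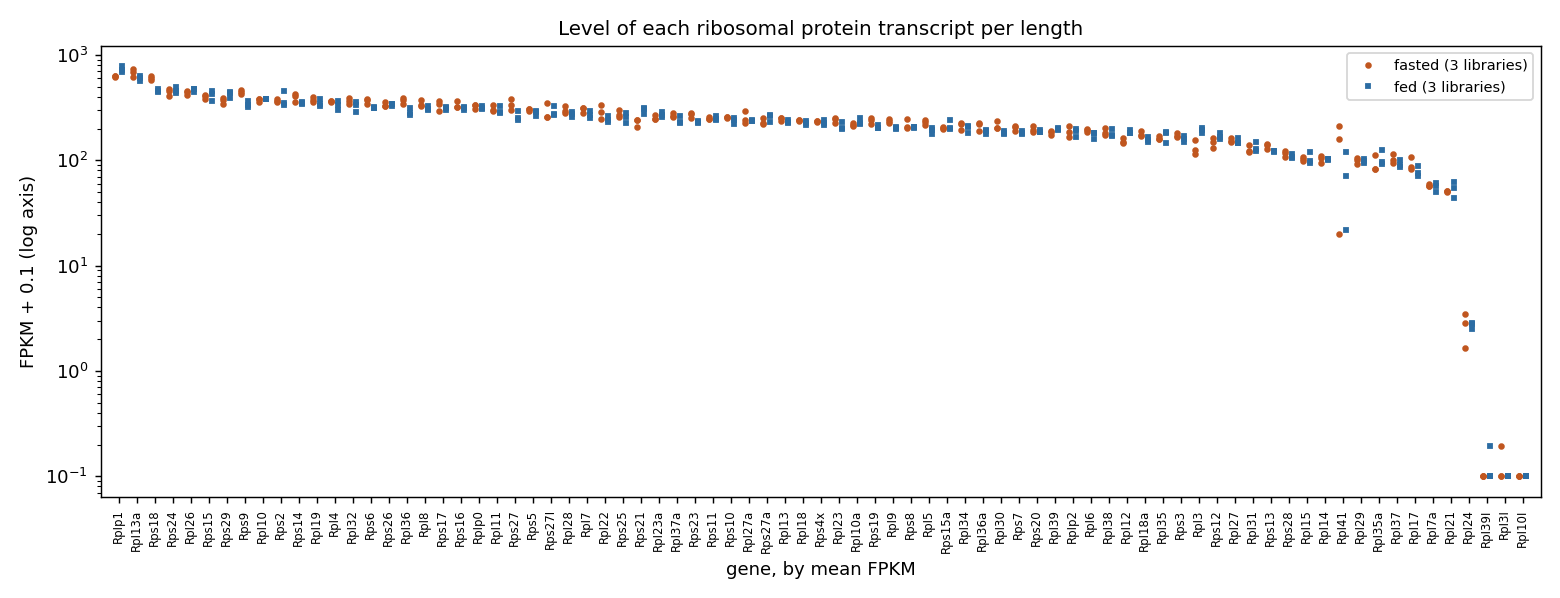
Level of each of the 79 members in each library as FPKM + 0.1 on a log axis, ordered by mean, with fasted libraries as circles left of fed libraries as squares. The middle 50% of the tested members lie between 183 and 322 FPKM, and Rpl41, the line named Rpl24 and the 3 untested paralogs lie far below the others in some or all libraries.

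Paralogs restricted to other tissues had almost no counts. Rpl3l, the paralog of Rpl3 in striated muscle, had 1 count in fasted library 2 and 0 in the others. Rpl10l and Rpl39l, paralogs of Rpl10 and Rpl39 known from testis, were close to absent too: Rpl10l was listed at 0 in all 6 libraries, and Rpl39l had 1 count in fed library 2 and 0 in the others. These 3 are the members that were not tested, and 3 counts corresponded to between 0.186 and 0.291 CPM in these libraries, a limit that covers counting error only. Their widely expressed counterparts were abundant and overlapped between groups in CPM except for Rpl3. Rpl10, a late-joining protein of the 60S subunit, had 246, 242 and 215 CPM in fasted livers, against 214, 222 and 246 CPM in fed livers. Rpl39, of the exit tunnel, had 89.6, 95.4 and 89.6 CPM in fasted livers, against 89.9, 90.9 and 102 CPM in fed livers. In FPKM its groups were apart, with 172, 190.4 and 184 FPKM in fasted livers, against 201, 194 and 198 FPKM in fed livers, and it was also lower without overlap in both shares of the total.

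The line named Rpl24 does not carry that gene's identifier. Its identifier, ENSMUSG00000022601, belongs in GENCODE M21 on GRCm38 to Zbtb11 at chr16:55973883-56008913, next to Rpl24 on the same strand, while another line, spelled RPL24, carries the identifier of Rpl24. The line named Rpl24 was at 2.59 FPKM, far below the other tested members, and gave 63.0 counts per FPKM, against a median of 7.35 over the tested members. The line spelled RPL24 had 149, 136 and 152 CPM in fasted livers, against 134, 116 and 127 CPM in fed livers, at a log2 fold change of 0.21 with an adjusted p of 0.431 by edgeR. The other 78 members carry the identifier of the gene they name.

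The annotation of the members bears on how well they can be counted. In GENCODE M21, 58 members have processed pseudogenes named after them, 288 in all, 5 overlap another gene on the same strand (Rpl13, Rpl13a, Rpl19, Rps10 and the line named Rpl24) and 21 on the opposite strand, among them Rps18, Rpl3, Rpl5 and Rpl12. Reads shared with such copies could be split in ways that are not stated, and no label or header gives the strand setting used in counting, which leaves the counts of these members uncertain. Small nucleolar RNAs, which guide modification of ribosomal RNA, lie within 28 tested members, 53 in all. The median log2 fold change was 0.14 in these hosts and 0.17 in the 48 tested members without one.

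Promoter motifs of 2 factors known to bind ribosomal protein genes were counted over the 300 bases from 250 before to 50 after the start, on both strands. The motif CCGGAAG, the core bound by GABPA, occurred in 24 of 58 matched members (41.4%) and in 9.93% of all genes in the table. The motif AAGATGGC, bound by YY1, occurred in 5 (8.62%) and in 3.19% of all genes, and the ends of the motifs can overlap. CTTTC, a core of the pyrimidine stretch that can overlap the TOP stretch, was counted on the strand of the gene from 20 bases before to 30 after the start and occurred in 21 (36.2%) and in 7.66% of all genes. Members with CCGGAAG had a median log2 fold change of 0.10 (23 tested), against 0.16 in those without (32 tested).

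Ribosomal proteins that the naming rule leaves out were read beside the members. Of the 7 tested, 0 were called by edgeR, and DESeq2 called 1. Fau, which encodes a 40S protein fused to a ubiquitin-like domain, had 179, 164 and 164 CPM in fasted livers, against 120.3, 124 and 126 CPM in fed livers, at a log2 fold change of 0.45 with an adjusted p of 0.125 by edgeR. Rpl22l1, the paralog of Rpl22, had 12.5, 14.4 and 10.3 CPM in fasted livers, against 26.5, 14.9 and 19.1 CPM in fed livers, at -0.70 with an adjusted p of 0.158 by edgeR. Rpsa, the ribosomal protein also known as a laminin receptor, and Gnb2l1, the older symbol of the 40S scaffold Rack1, had log2 fold changes of -0.04 and 0.07.

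The translation apparatus around the ribosome was read from lists, of which 3 genes passed the test in all. Among 19 elongation factors and other transcripts known to carry a TOP stretch, edgeR called 1 as higher and 0 as lower in fasted livers and DESeq2 called 8, where they called 2.52% and 8.33% of all genes. Their median log2 fold change was 0.42, and it was 0.28 with library totals only and 0.23 without the 10 most abundant genes in the totals. The gene called was Eif4b, a cofactor of the helicase eIF4A, with 268, 340 and 336 CPM in fasted livers, against 154, 132 and 104 CPM in fed livers. Its log2 fold change was 1.28 (0.79 to 1.76), with an adjusted p of 0.0314 by edgeR. Eef2, which moves the ribosome along the transcript, had 1692, 2023 and 1809 CPM in fasted livers, against 1006, 967 and 831 CPM in fed livers, at 0.98 with an adjusted p of 0.0603 by edgeR. Eef1a1, which delivers aminoacyl-tRNA, had 4560, 4656 and 4586 CPM in fasted livers, against 3406, 3125 and 3016 CPM in fed livers, at 0.53 with an adjusted p of 0.238 by edgeR. In CPM the groups did not overlap for 11 of the 19, all higher in fasted livers, where 15.3% of all tested genes were higher and 13.7% lower. As a share of the library total 7 were higher and 1 lower, where 7.74% of all tested genes were higher and 19.1% lower.

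Of 34 initiation factors edgeR called 0 and DESeq2 called 2, where they called 2.52% and 8.33% of all genes. Their median log2 fold change was 0.06, and it turned to -0.085 with library totals only, -0.12 without the 10 most abundant genes in the totals, -0.0097 with upper-quartile factors and -0.033 without fed library 2. The list leaves out Eif4b, Eif3e, Eif3f, Eif3h and Eif2s3x, which were counted with the TOP transcripts and had 1.28, 0.61, 0.42, 0.51 and 0.08. Eif1, which guards the choice of start codon, had 234, 242 and 299 CPM in fasted livers, against 163, 140.3 and 152 CPM in fed livers, at 0.77 with an adjusted p of 0.0643 by edgeR. Eif2s1 had 33.7, 34.4 and 40.8 CPM in fasted livers, against 52.3, 46.4 and 50.9 CPM in fed livers. Its groups did not overlap, at -0.46 with an adjusted p of 0.110 by edgeR. The list of regulators of ribosomal protein translation also holds factors that act on transcription, among them Gabpa and Yy1. Among its 25 genes 1 was higher and 1 lower by edgeR, where 1.41% and 1.11% of all genes were. Their median was 0.13, and it turned to -0.018 with library totals only and -0.06 without the 10 most abundant genes in the totals. Eif4ebp3, a repressor of the cap-binding factor eIF4E, had 164, 257 and 260 CPM in fasted livers, against 14.3, 21.4 and 43.1 CPM in fed livers, at 3.11 with an adjusted p of 0.0194 by edgeR; it overlaps another gene on the same strand, so its counts are uncertain. Pdcd4, an inhibitor of eIF4A, had 58.3, 48.0 and 52.3 CPM in fasted livers, against 90.0, 82.0 and 101 CPM in fed livers, at -0.78 with an adjusted p of 0.0453 by edgeR. Larp1, the TOP-binding repressor, had 131, 142 and 146 CPM in fasted livers, against 117, 150 and 129 CPM in fed livers, with overlapping groups at 0.08. Without fasted library 1, 2 or 3 or without fed library 2, edgeR called 0 genes of the translation lists.

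Mitochondrial ribosomal proteins, encoded in the nucleus and built into a separate ribosome, were also not called by edgeR (0 of 76), and DESeq2 called 3. Their median log2 fold change was -0.08 with the middle 50% between -0.23 and 0.09, and 31 of 76 had an estimate above 0. It was -0.23 with library totals only, -0.26 without the 10 most abundant genes in the totals, -0.17 with limma on log2(FPKM + 0.1), -0.14 with upper-quartile factors, and between -0.022 and -0.12 when a library was left out, with the value nearest to 0 without fasted library 2. In CPM 6 were higher and 10 lower in fasted livers without overlap, where 15.3% of all tested genes were higher and 13.7% lower. In FPKM 1 was higher and 14 lower, where 10.4% of all genes in that fit were higher and 16% lower. As a share of the library total 0 were higher and 16 lower, where 7.74% and 19.1% of all tested genes were. Without the 10 most abundant genes in the total 0 were higher and 31 lower, where 7.98% and 24.3% of all tested genes were. The 76 cytosolic members had a median of 0.16, with 33 higher and 3 lower in CPM and 15 higher and 5 lower in FPKM. As a share of the library total 8 of them were higher and 9 lower. Without the 10 most abundant genes in the total 7 of them were higher and 16 lower. The difference between these 2 families was not tested.

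**Figure D5:**
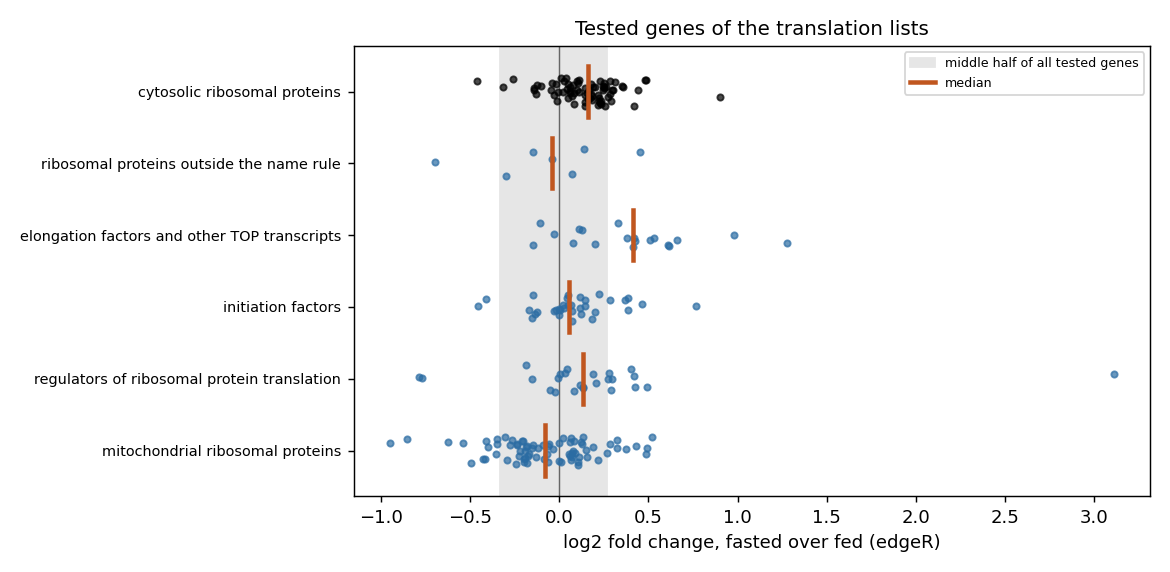
log2 fold change, fasted over fed, of each tested gene (points) in the cytosolic ribosomal protein family and 5 other translation lists, with the median of each (bar) and the middle 50% of all tested genes (grey band). Most cytosolic ribosomal protein genes sit inside the band with a median of 0.16, the elongation factors and other TOP transcripts reach a median of 0.42, and Eif4ebp3 at 3.11 lies farthest out. With totals that leave out the 10 most abundant genes these medians were -0.02 and 0.23.

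Hepatocyte markers were abundant in every library: the 10 genes summed to between 98882 and 110972 CPM in fasted livers and between 24502 and 75042 CPM in fed livers, where Alb is at 0 in fed library 2. Of these 10 genes edgeR called 1, as higher in fasted livers, where it called 1.41% of all tested genes as higher. In CPM 7 were higher without overlap, and the median log2 fold change was 0.67. Over all tested genes 15.3% were higher and 13.7% lower without overlap in CPM. The marker lists are given in CPM only. Erythroid markers had a median of 1.09, with 4 of 5 tested estimates above 0 and 3 higher in fasted livers without overlap. Alas2 went the other way at -1.01, with 42.4, 31.1 and 26.9 CPM in fasted livers, against 140, 44.9 and 16.9 CPM in fed livers. Stellate cell and fibroblast markers had a median of 0.05, with 3 of 8 lower without overlap. Of the erythroid and the stellate list edgeR called 0. Markers of Kupffer cells summed to between 597 and 874 CPM in fasted livers and between 642 and 800.2 CPM in fed livers, and of endothelium to between 226 and 299 CPM in fasted livers and between 252 and 341 CPM in fed livers. The summed lymphocyte markers stayed under 22 CPM in every library, and Ptprc made up most of that sum. Neutrophil markers summed to 33.8, 123 and 21.6 CPM in fasted libraries 1, 2 and 3, against 6.70, 172 and 91.7 CPM in fed libraries 1, 2 and 3. The 5 cholangiocyte markers summed to 20.1, 30.1 and 13.7 CPM in fasted libraries 1, 2 and 3, against 34.2, 129 and 542 CPM in fed libraries 1, 2 and 3, and Spp1 and Sox9 made up most of the sum in fed library 3 (501 and 39.3 CPM). Krt19, Krt7 and Epcam stayed under 1 CPM in every library. The part of these cell types in the members' levels was not tested. Counts of the listed genes, after the scaling step was divided out, totalled between 11157991 and 11639382 in fasted libraries and between 12289648 and 14771819 in fed libraries.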

How the data were processed

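Per the labels' protocols, liver RNA was depleted of ribosomal RNA and made into libraries with a stranded kit. CASAVA 1.8, TopHat2 and the human build hg19 are named in the submitters' processing notes, while the table carries mouse identifiers; no label or header names the counting program. The deposited table gives FPKM and estimated counts by the authors, per the file headers, and holds 22564 genes. The deposited estimated counts were whole multiples, within 0.02, of a step of 0.840 to 1.18 in 90.1% to 91.0% of values per library, and were divided by it and rounded to whole numbers. Lines sharing a symbol (162) were summed, and 1 line had been emptied. Fasted and fed libraries were compared with edgeR 4.0.16 in R 4.3.3 (quasi-likelihood test, TMM factors, filterByExpr with a minimum count of 10, two-sided, Benjamini-Hochberg adjustment over 11633 genes). CPM use TMM-scaled totals. DESeq2 1.42.0 and limma 3.58.1 on log2(FPKM + 0.1), for genes with at least 1 FPKM in 3 libraries, were alternatives, as were other scalings, filters and left-out libraries. The scripts were checked on simulated counts. An exact permutation test of 3 against 3 libraries cannot go below a p of 0.1, so none was run. Gene coordinates come from GENCODE M21 (GRCm38) through the identifiers, of which 21839 matched; start sequences are from RefSeq on GRCm38.p6. Members, lists and tests were chosen with earlier results of these data known. Named members are those among the 6 highest or 6 lowest estimates whose groups did not overlap, the 5 highest and 3 lowest in FPKM, those untested, paralogs, stalk proteins and Rps6; from each list up to 4 with the lowest adjusted p. A member outside that rule is said to be chosen after its values were seen, which also holds for Eef1a1, Larp1, Rpsa and Gnb2l1.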

Additional observations from a re-analysis of the deposited data

How the results depend on the processing

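Genes called numbered 293 in the fit as reported, 1054 with DESeq2, 190 with library totals only (30% higher in fasted livers, against 56.0% as reported), 173 with limma on log2(FPKM + 0.1) (44.5% higher), 39 with limma without a filter, and 3 to 754 when a library was left out (33, 3 and 30 without fasted library 1, 2 or 3; 497, 13 and 754 without fed library 1, 2 or 3). Ribosomal protein genes called were 3 with DESeq2 and 0 in every other setting tried. Same-numbered libraries did not deviate together (r of -0.07, 0.18 and -0.13), where differently numbered ones ran from -0.26 to 0.29. No pairing by number was thus seen, but with 3 libraries a group these values cannot settle it. With a replicate block edgeR called 29 genes and 0 members, and 1 gene of the other translation lists. Those lists gave 3 calls as reported, 16 with DESeq2, 0 with unfiltered FPKM, 6 with totals without the 10 most abundant genes, and 0 to 4 when a library was left out. The members' median log2 fold change of 0.16 was 0.025 with library totals only, 0.081 with each limma fit, 0.091 with upper-quartile factors, -0.019 with totals without the 10 most abundant genes, and 0.10 to 0.20 when a library was left out. The log2 ratio of their summed share, 0.01, was -0.032 without the 10 most abundant genes, 0.15 relative to TMM-scaled totals, and -0.042 to 0.068 when a library was left out. With the line spelled RPL24 in place of the line named Rpl24, an alternative chosen after seeing the data, no call was gained or lost.

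Of 456 values for 24 single members, 407 kept direction and side of the threshold, 3 passed it (DESeq2) and 46 changed sign. With library totals only these were Rpl10 -0.092, Rpl7a -0.022, Rplp0 -0.035, Rplp2 -0.070, Rps24 -0.12, Rps27l -0.074 and Rps4x -0.028. With limma on log2(FPKM + 0.1), filtered or not, they were Rpl10 -0.026, Rpl21 -0.082, Rps24 -0.058 and Rps27l -0.026. With a pseudocount of 1 they were Rpl10 -0.025, Rpl21 -0.081, Rps24 -0.058 and Rps27l -0.026. With totals without the 10 most abundant genes they were Rpl10 -0.13, Rpl13a -0.034, Rpl7a -0.067, Rplp0 -0.080, Rplp2 -0.12, Rps24 -0.16, Rps27l -0.12 and Rps4x -0.068. With upper-quartile factors they were Rpl10 -0.023, Rplp2 -0.0088, Rps24 -0.046 and Rps27l -0.0069. Leaving out a library gave ranges of -0.023 to 0.11 (Rpl10), -0.029 to 0.33 (Rpl21), -0.28 to 0.21 (the line named Rpl24), -0.079 to 0.066 (Rpl26), -0.10 to 0.021 (Rpl39), -0.013 to 0.20 (Rpl7a), -0.034 to 0.15 (Rplp2), -0.046 to 0.070 (Rps24) and -0.091 to 0.14 (Rps27l). The cause of these changes was not tested. With 3 libraries a group, the 95% interval reached past 1.25-fold for every tested member.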

Other observations

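The line named Rps4y2, chosen after its values were seen, stood out in a single library. It had 1, 1 and 194 counts in fasted libraries 1, 2 and 3, against 1, 1 and 1 count in fed libraries 1, 2 and 3. Its identifier belongs in GENCODE M21 to Rps4l, listed there as a transcribed processed pseudogene. Rps4x, whose sequence family it shares, was even over the same libraries, with 218, 217 and 207 CPM in fasted libraries and 196, 194 and 204 CPM in fed libraries. The line did not pass the filter on low counts and was not tested.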
